A study of Mus musculus with 9 samples.

Results

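The mitosis and spindle checkpoint genes are 38 genes that carry a cell from entry into mitosis to the separation of the daughter cells, listed by gene name. They were read from the array as single-gene probe sets, and where a gene had several, the one brightest on average across the 9 arrays was taken. By this rule 37 of the 38 were measured, among 18194 genes in all, and Ccnb1 was not analysed here. The 37 genes had 80 probe sets, and 23 genes had more than 1.

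The arrays held total RNA of SCCVII, a tumour line from an oral squamous cell carcinoma that arose spontaneously in CH3 mice. There were 3 groups of 3 arrays. IR cells were lines recovered from tumours that parental cells had formed in stroma irradiated before the injection. NIR cells were lines recovered from tumours of the same parental cells in stroma that had not been irradiated. PA cells were the parental SCCVII cells, kept in culture. The labels describe IR lines as invasive and metastatic also after culture in normal oxygen, and NIR lines as poorly so. The design text calls the 9 samples independent, but no label says whether a group's 3 samples are different tumours or different dishes, so p-values measure only the spread between these samples, which may be technical. No dose, time or age is given in the labels.

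Entry into mitosis is driven by CDK1 with its cyclins, and a set of kinases then builds the spindle. The spindle assembly checkpoint holds back the anaphase-promoting complex until every kinetochore is attached to microtubules. Once the checkpoint is satisfied, CDC20 activates that complex, cyclin B and securin are degraded, and separase cuts the cohesin that holds sister chromatids together. Most of these genes are transcribed in G2 and mitosis, under the MuvB, MYBL2 and FOXM1 complexes, so in a dividing culture their RNA is known to follow the share of cycling cells. In bulk RNA, fewer cells in a phase and less RNA per cell cannot be told apart.

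Values are log2 expression from RMA, in which a difference of 1 is a doubling. The values of all probe sets ranged from 2.47 to 14.01 with array medians of 4.45 to 4.52. Over all probe sets, the SD of the differences between arrays was 0.137 to 0.217 for pairs within a group and 0.174 to 0.279 for pairs from different groups. Of 16 squamous and epithelial markers, 9 lay above the median probe set (4.49) in all 9 arrays and 7 lay below it in all 9. Krt8, a simple-epithelial keratin, lay at 12.61 to 12.85 and Vim, a mesenchymal filament gene, at 13.40 to 13.53, while the squamous genes Krt14 (3.66 to 4.03) and Trp63 (4.15 to 4.38) and the adhesion gene Cdh1 (3.24 to 3.37) lay below the median probe set. Krt5, another squamous keratin, lay just above it, at 4.80 to 5.11. Of 18 macrophage markers 6 lay above the median probe set in all 9 arrays and 7 lay below it in all 9. Their list's mean was 4.61 to 4.97 in IR, 4.57 to 4.69 in NIR and 4.45 to 4.56 in PA arrays. Of 13 fibroblast markers 10 lay above the median probe set in all 9 arrays and 2 below it in all 9. Their list's mean was 8.06 to 8.14 in IR, 7.91 to 8.20 in NIR and 7.78 to 7.89 in PA arrays. Of these lists 4 genes passed in limma, at an adjusted p under 0.05, in some comparison. Of all genes 1.65% passed in IR minus NIR, 1.06% in IR minus PA and 1.3% in NIR minus PA. The macrophage list had a median difference of 0.0072 in NIR minus PA (10 genes higher, 8 lower) and 0.18 in IR minus PA (15 higher, 3 lower). For the fibroblast list it was 0.049 in NIR minus PA and 0.030 in IR minus PA (10 higher, 3 lower in each). Krt18, the partner of Krt8, had 11.94, 11.94 and 12.00 in IR arrays, against 11.16, 11.54 and 11.48 in NIR arrays, with 11.43, 11.37 and 11.41 in PA arrays. It was higher in IR than in NIR by 0.57 (limma adjusted p 0.018) and than in PA by 0.55 (limma adjusted p 0.0146). The NIR comparison passed unless IR1, IR2 or IR3 was left out (limma adjusted p up to 0.0609), and the PA comparison unless IR1, IR2, PA1, PA2 or PA3 was (up to 0.0901). The fibroblast gene Dcn was higher than in PA by 1.24 in IR (limma adjusted p 0.00265, past the threshold whichever array was left out) and by 0.81 in NIR (limma adjusted p 0.0391, past it only without IR3 or NIR3). The fibroblast gene Lum was higher in NIR than in PA by 1.29 (limma adjusted p 0.0241), and the macrophage gene Mrc1 by 0.75 (limma adjusted p 0.0156). The Lum call was lost without NIR1, NIR2, PA1, PA2 or PA3 (limma adjusted p up to 0.119), and the Mrc1 call without NIR1, PA1 or PA3 (up to 0.099). The part of these signals in the results on mitotic genes was not tested.

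All 37 members were well within the measured range. The lowest value of any member in any array was 7.10, for Ndc80 in NIR2, and the highest was 11.8, for Ube2c. The groups differed little as a whole, with a mean over the 37 genes of 9.51 ± 0.0097 in IR arrays, 9.52 ± 0.010 in NIR arrays and 9.52 ± 0.040 in PA arrays (SD, n = 3 each). The range of a gene over the 9 arrays ran from 0.12 (Cenpf) to 0.67 (Espl1), with a median of 0.29. The residual SD of the members had a median of 0.078, against 0.11 for all 18194 genes.

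Only 2 of the 37 genes passed the test in any comparison between groups, both in IR against NIR, where 1.65% of all genes passed, and in opposite directions. None passed in IR against PA or NIR against PA, where 1.06% and 1.3% of all genes did. Bub1, the checkpoint kinase that docks other checkpoint proteins at kinetochores, was higher in IR cells by 0.40 (1.32-fold). Espl1, which encodes separase, was 1.33-fold lower in IR cells. The other 35 genes did not pass. The promoters of both genes, with that of Cdk1, are shown here because the cell-cycle elements of such promoters are known to time their transcription. Each stretch is written 5' to 3' on the gene's strand from RefSeq (build GRCm38.p6), from 250 bases before the annotated start to 50 after it, and capitals mark CCAAT boxes (CCAAT or ATTGG) and CHR elements (TTTGAA or TTCAAA). Bub1 lies at chr2:127831810-127832109 on the minus strand, Espl1 at chr15:102296043-102296342 on the plus strand and Cdk1 at chr10:69352863-69353162 on the minus strand.
Bub1: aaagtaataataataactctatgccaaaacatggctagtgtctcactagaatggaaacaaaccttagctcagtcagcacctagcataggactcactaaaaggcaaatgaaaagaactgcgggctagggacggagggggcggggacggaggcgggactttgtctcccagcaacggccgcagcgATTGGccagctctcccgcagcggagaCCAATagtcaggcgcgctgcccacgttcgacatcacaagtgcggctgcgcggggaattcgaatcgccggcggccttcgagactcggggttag
Espl1: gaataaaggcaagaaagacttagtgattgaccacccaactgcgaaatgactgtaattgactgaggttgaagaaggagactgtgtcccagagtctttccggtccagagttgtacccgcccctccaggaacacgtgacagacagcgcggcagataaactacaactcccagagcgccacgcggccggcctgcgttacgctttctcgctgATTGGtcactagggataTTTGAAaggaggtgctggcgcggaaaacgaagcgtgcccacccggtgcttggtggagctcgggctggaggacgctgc
Cdk1: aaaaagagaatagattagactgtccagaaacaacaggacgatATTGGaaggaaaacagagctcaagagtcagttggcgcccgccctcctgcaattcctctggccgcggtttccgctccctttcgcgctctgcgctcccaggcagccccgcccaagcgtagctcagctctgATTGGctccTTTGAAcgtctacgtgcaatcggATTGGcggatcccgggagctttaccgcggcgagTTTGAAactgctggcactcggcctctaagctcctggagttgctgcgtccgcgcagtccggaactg
The Bub1 stretch held 2 CCAAT boxes, which begin 68 and 42 bases before the start. It held neither TTTGAA nor TTCAAA, and other letters were not searched for a CHR. In the Espl1 stretch, 1 CCAAT box begins 44 bases before the start and 1 CHR 27 bases before it. The Cdk1 stretch held 3 CCAAT boxes, at 208, 80 and 48 bases before the start, and 2 CHR elements, at 71 and 15 bases.

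RefSeq promoters were found for 32 of the 38 listed genes, Ccnb1 included, as 35 promoters. Promoters of Kif20a, Tpx2, Ccna2, Cdc25c, Aurkb and Incenp were not used here. Either strand of the CHR letters was present in 26 of the 35 promoters (74.3%), against 17.9% of all 32851 promoters of that length. The CCAAT letters were present in 28 of 35 (80.0%), against 37.4% of all, and both in 23 (65.7%), against 6.95%. These are matches of letters and not sites. Among measured genes with a promoter, the median IR minus NIR difference was -0.033 for the 23 genes with CHR letters and 0.076 for the 8 without. It was -0.034 for the 24 genes with CCAAT letters and 0.095 for the 7 without. In IR minus PA the medians were -0.015 with and 0.026 without CHR letters, and -0.014 with and -0.011 without CCAAT letters. In NIR minus PA they were 0.028 and -0.052 for CHR, and 0.031 and -0.12 for CCAAT. No test was made of these splits.

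The first comparison asks whether lines from irradiated stroma differ from lines from stroma that was not irradiated. Of the 37 genes 1 was higher and 1 lower in IR than in NIR at an adjusted p under 0.05 in limma, which is 2 of 37, where 1.65% of all genes tested passed, 0.786% higher and 0.863% lower. Without adjustment 8 members had p under 0.05, 3 higher and 5 lower, where 15.9% of all genes did, 7.8% higher and 8.08% lower. The differences ran from -0.41 to 0.40, with a median of -0.0050 against 0.0014 over all genes. Arrays of IR and NIR did not overlap for 10 members, 2 above and 8 below, where 18.1% of all genes were so separated, 8.69% above and 9.4% below. The difference was within 0.2 either way for 31 members (83.8%), against 82.5% of all genes.

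**Figure D1:**
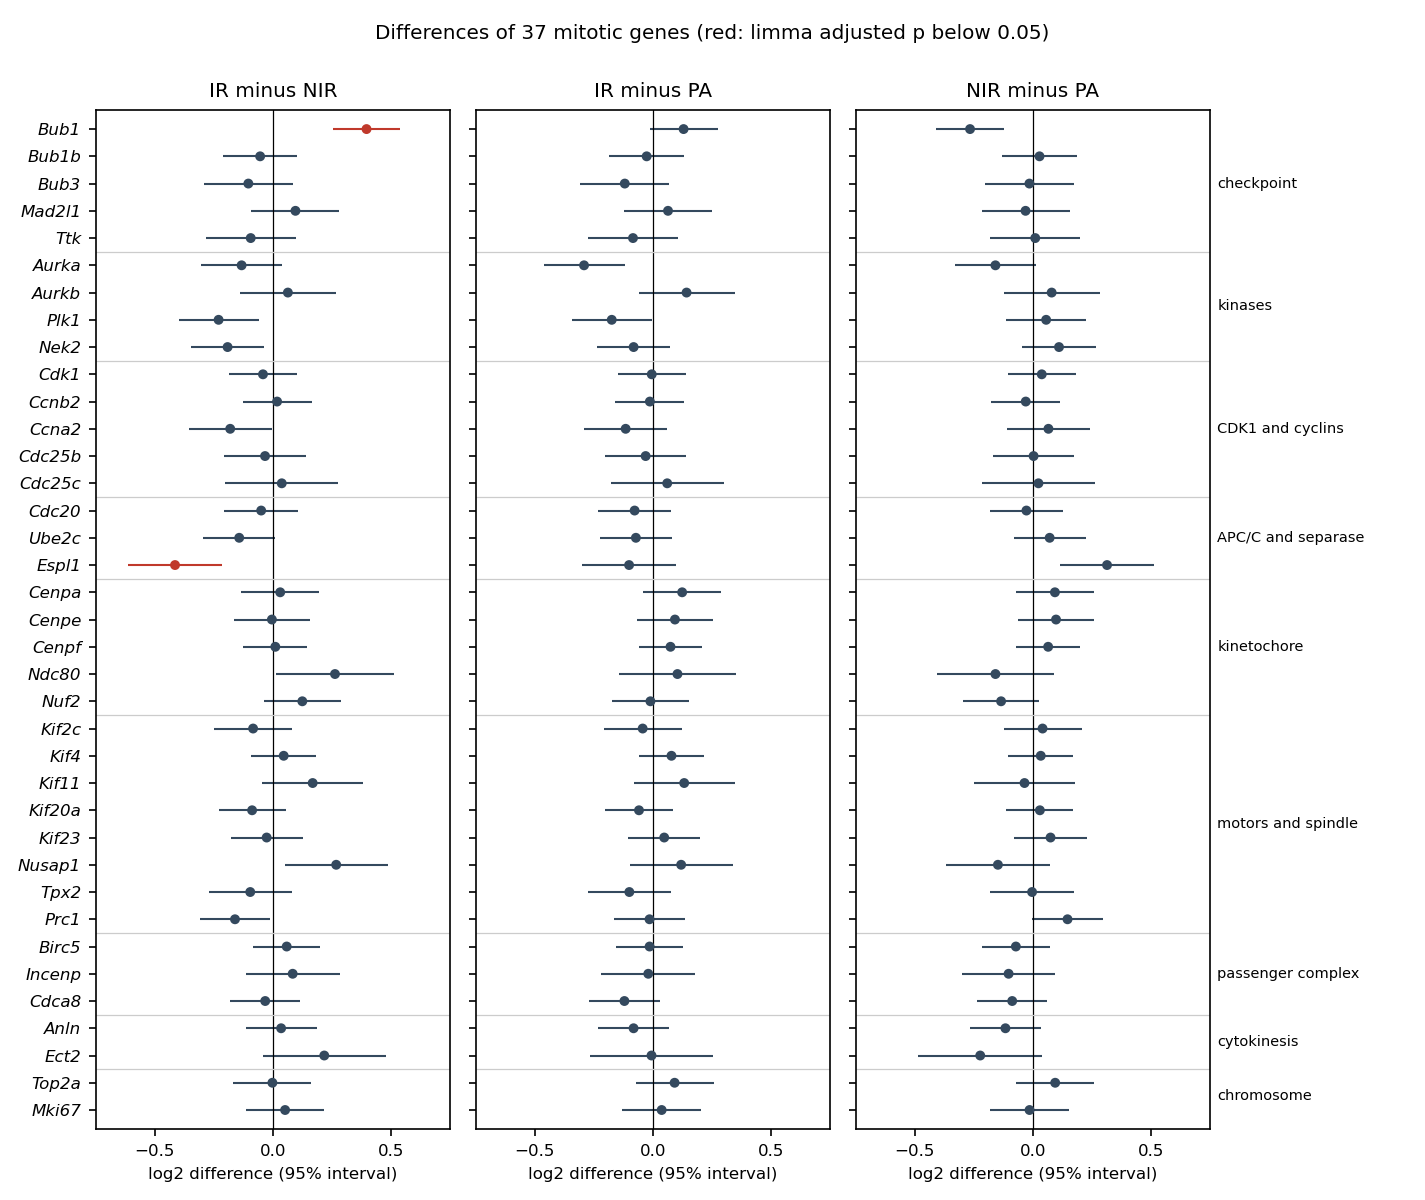
Log2 differences of the 37 genes in the 3 comparisons, IR minus NIR, IR minus PA and NIR minus PA, with 95% intervals from limma, genes in rows by role and red for genes past the adjusted threshold. Bub1 (0.40) and Espl1 (-0.41) in IR minus NIR are the red points, and most other points lie within 0.2 of 0.

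The checkpoint genes hold the complex back. Bub1 had log2 values of 9.49, 9.48 and 9.58 in IR arrays, against 9.13, 9.08 and 9.14 in NIR arrays, with 9.42, 9.40 and 9.33 in PA arrays. Every IR array lay above every PA array and every PA array above every NIR array, the sole member for which all 3 groups were separated, where 1.94% of all genes were. In limma the IR minus NIR difference of Bub1 was 0.40 (SE 0.066, 95% interval 0.25 to 0.54, adjusted p 0.018, higher in 3 of 3 arrays than in any NIR array). The IR minus PA difference of Bub1 was 0.13 (limma adjusted p 0.644) and the NIR minus PA difference was -0.27 (limma adjusted p 0.0875), so neither passed. The call rested on every IR array. Without IR1, IR2 or IR3 the limma adjusted p of Bub1 was 0.0591, 0.0505 and 0.0508, with a difference of 0.41, 0.41 and 0.36. With only IR and NIR arrays in the fit the limma adjusted p of Bub1 was 0.0863, and the mean of its probe sets gave 0.22 (adjusted p 0.138). The other Bub1 probe set averaged 4.24, below the median probe set, with an IR minus NIR difference of 0.046. IR3 had the highest macrophage list mean (4.97) and the highest Bub1 value, and the part of that in the result was not tested.

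Other checkpoint genes did not pass. Bub1b, which encodes the BubR1 component of the mitotic checkpoint complex, averaged 8.66 ± 0.11 in IR, 8.72 ± 0.026 in NIR and 8.69 ± 0.010 in PA arrays (SD, n = 3 each). Bub3, which carries Bub1 and BubR1 to kinetochores, averaged 11.06 in IR, 11.16 in NIR and 11.18 in PA arrays. Mad2l1, whose protein binds and inhibits CDC20, averaged 11.02 in IR, 10.93 in NIR and 10.96 in PA arrays. Over the 5 checkpoint genes, differences in IR minus NIR ran from -0.10 to 0.40, and Bub1 was the member at the upper end. Ttk, the kinase at the head of the checkpoint, averaged 8.16 in IR, 8.26 in NIR and 8.25 in PA arrays.

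Downstream of the checkpoint stand the activator, the ubiquitin enzyme and separase. Espl1 had values of 8.31, 8.35 and 8.26 in IR arrays, against 8.68, 8.93 and 8.56 in NIR arrays, with 8.43, 8.35 and 8.45 in PA arrays. All IR arrays lay below all NIR arrays, NIR arrays lay above PA arrays, and IR and PA arrays overlapped. The IR minus NIR difference of Espl1 in limma was -0.41 (SE 0.091, 95% interval -0.61 to -0.22, adjusted p 0.0486). The NIR minus PA difference of Espl1 was 0.31 (limma adjusted p 0.159) and its IR minus PA difference was -0.10 (limma adjusted p 0.853). The call was close to the threshold and held in 1 of the 9 fits that left out an array, the one without NIR3 (limma adjusted p 0.0316). Without IR1, IR2, IR3, NIR1, NIR2, PA1, PA2 or PA3 the adjusted p was above 0.05, and it reached 0.14 without IR3. Without NIR2, the array with the highest Espl1 value and the highest fibroblast list mean (8.20), the difference was -0.31 (limma adjusted p 0.0878). The same list had a mean of 7.78 to 7.89 in the arrays of cultured parental cells, and its part in the result was not tested.

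Cdc20, the activator of the anaphase-promoting complex, averaged 11.08 in IR, 11.13 in NIR and 11.16 in PA arrays. Ube2c, its ubiquitin-conjugating enzyme, had 11.60, 11.65 and 11.56 in IR arrays, against 11.72, 11.85 and 11.66 in NIR arrays, so IR arrays lay just below NIR arrays. The difference of Ube2c was -0.14 (limma adjusted p 0.35).

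**Figure D2:**
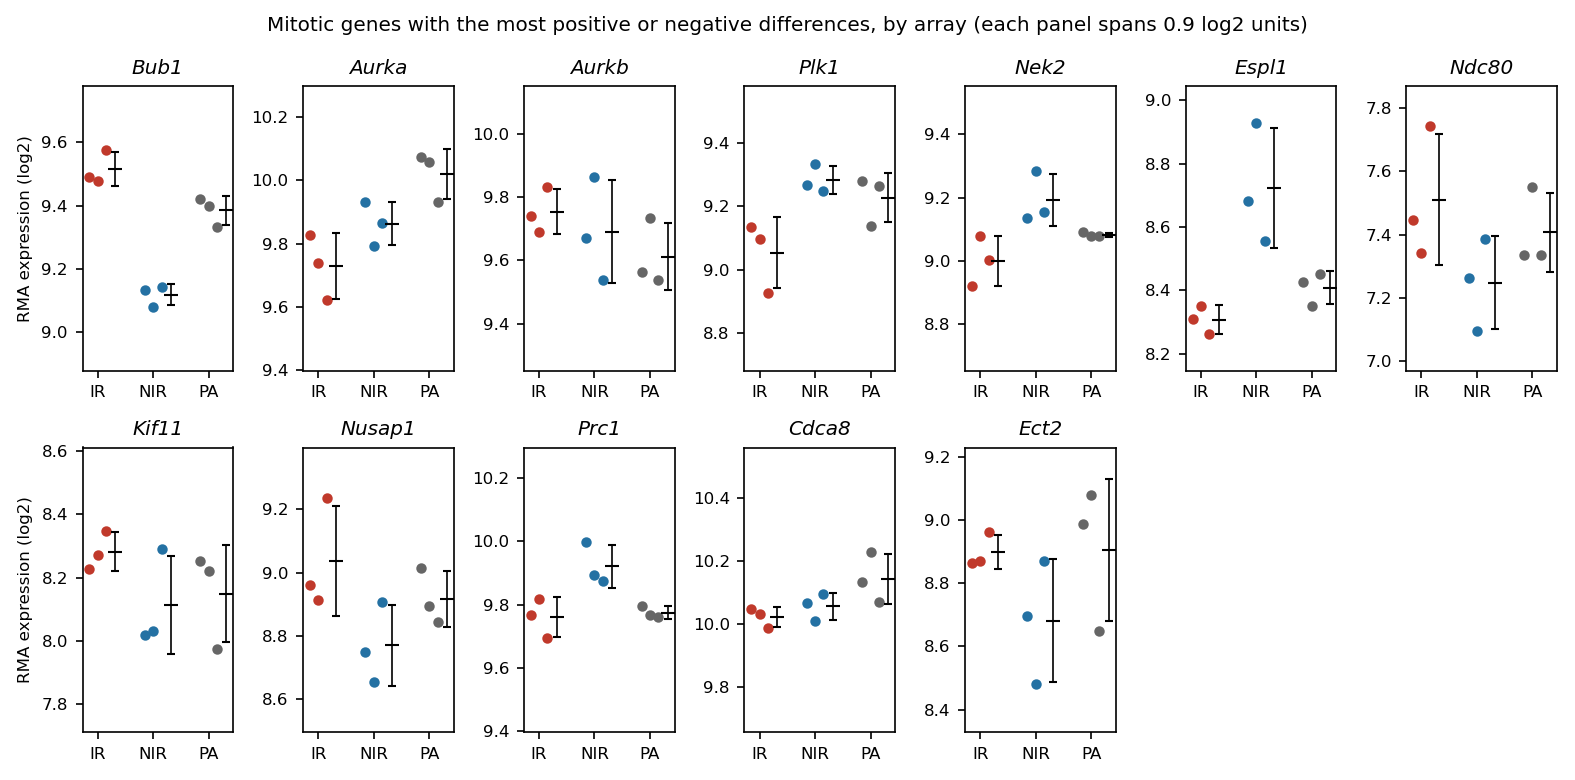
Log2 values of 12 genes in each array, IR left, NIR in the middle and PA right, with points for single arrays and bars for the mean ± SD of 3 arrays. Bub1 is separated in all 3 groups (IR 9.48 to 9.58, PA 9.33 to 9.42, NIR 9.08 to 9.14), and Espl1 is highest in NIR (8.56 to 8.93).

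The mitotic kinases gave no call. Plk1, which acts at centrosomes, kinetochores and the cleavage plane, had 9.14, 9.10 and 8.93 in IR arrays, against 9.27, 9.33 and 9.25 in NIR arrays, with 9.28, 9.14 and 9.27 in PA arrays. IR arrays lay below both other groups, though IR1 and PA2 were nearly equal (both 9.14). The differences of Plk1 were -0.23 in IR minus NIR (limma adjusted p 0.161) and -0.17 in IR minus PA (limma adjusted p 0.558). Without IR3 the IR minus PA difference of Plk1 was -0.11.

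Aurka, the kinase of centrosome maturation and spindle assembly, had 9.83, 9.74 and 9.62 in IR arrays, with 9.93, 9.79 and 9.86 in NIR arrays, against 10.08, 10.06 and 9.93 in PA arrays. IR and NIR arrays overlapped, and both lay below PA arrays, though NIR1 and PA3 were nearly equal (both 9.93). The IR minus PA difference of Aurka was -0.29 (SE 0.078, 95% interval -0.46 to -0.12, limma adjusted p 0.159), and the NIR minus PA difference was -0.16 (limma adjusted p 0.455). The other Aurka probe set, with a mean of 3.58 near background, gave 0.061 in IR minus PA and 0.073 in NIR minus PA, on the other side of 0.

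Nek2, a kinase that separates centrosomes, had 8.92, 9.08 and 9.00 in IR arrays, against 9.14, 9.28 and 9.16 in NIR arrays, with 9.09, 9.08 and 9.08 in PA arrays. NIR arrays lay above both other groups, and IR overlapped with PA. The IR minus NIR difference of Nek2 was -0.19 (limma adjusted p 0.205), and its dimmer probe sets gave -0.064, 0.053 and 0.025. Aurkb, the kinase of the passenger complex, had 9.74, 9.69 and 9.83 in IR arrays, with 9.67, 9.86 and 9.54 in NIR arrays, against 9.56, 9.73 and 9.54 in PA arrays, and the groups overlapped. Its IR minus PA difference was 0.14 (limma adjusted p 0.755).

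CDK1, its cyclins and the CDC25 phosphatases that activate it did not pass in any comparison. Cdk1 averaged 11.06 ± 0.029 in IR, 11.10 ± 0.067 in NIR and 11.06 ± 0.032 in PA arrays (SD, n = 3 each). Its differences were -0.043 in IR minus NIR, -0.0053 in IR minus PA and 0.037 in NIR minus PA, and their 95% intervals reached from -0.19 to 0.18. Ccnb2, a cyclin B, averaged 11.05 in IR, 11.04 in NIR and 11.07 in PA arrays. Ccna2, cyclin A of S and G2 phases, had 10.84, 10.79 and 10.71 in IR arrays, against 10.87, 11.13 and 10.90 in NIR arrays, with 10.92, 10.91 and 10.87 in PA arrays. IR arrays of Ccna2 lay below both other groups, with a difference of -0.18 in IR minus NIR (limma adjusted p 0.294). The other Ccna2 probe set, with a mean of 10.26, gave -0.0073 in IR minus NIR, and its groups overlapped. Cdc25b averaged 8.16 in IR, 8.20 in NIR and 8.19 in PA arrays, and Cdc25c averaged 7.72 in IR, 7.68 in NIR and 7.66 in PA arrays.

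At the kinetochore, Ndc80, the microtubule-binding component, had 7.45, 7.34 and 7.74 in IR arrays, against 7.26, 7.10 and 7.39 in NIR arrays, with 7.34, 7.55 and 7.34 in PA arrays. The groups overlapped, with IR3 the highest value. The IR minus NIR difference of Ndc80 was 0.26 (SE 0.11, limma adjusted p 0.283), and 0.15 without IR3. Nuf2, its partner in the same complex, averaged 8.33 in IR, 8.20 in NIR and 8.34 in PA arrays. Cenpa, the histone variant of centromeres, averaged 10.20 in IR, 10.17 in NIR and 10.08 in PA arrays on its brightest probe set, with an IR minus NIR difference of 0.030. A second Cenpa probe set, with a mean of 5.31, had 4.91, 5.14 and 5.22 in IR arrays, against 5.72, 5.82 and 5.56 in NIR arrays, with 5.33, 5.02 and 5.08 in PA arrays. That probe set was lower in IR than in NIR, with a difference of -0.61 (adjusted p 0.0275 in limma over all probe sets), and higher in NIR than in PA by 0.56 (adjusted p 0.0365 in limma), so the probe sets of Cenpa disagreed. Cenpe, a kinetochore motor, averaged 9.01 in IR, 9.02 in NIR and 8.92 in PA arrays, and Cenpf, a large kinetochore protein, averaged 8.92 in IR, 8.91 in NIR and 8.84 in PA arrays.

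Among motors and spindle proteins, Nusap1, a microtubule-bundling protein, had 8.96, 8.91 and 9.24 in IR arrays, against 8.75, 8.65 and 8.91 in NIR arrays, with 9.01, 8.90 and 8.84 in PA arrays. IR arrays lay above NIR arrays, narrowly for IR2 against NIR3. The difference was 0.27 (limma adjusted p 0.208), and 0.17 without IR3. The other probe set of Nusap1, with a mean of 3.89, gave 0.0076. Prc1, which bundles midzone microtubules, had 9.77, 9.82 and 9.69 in IR arrays, with 10.00, 9.89 and 9.87 in NIR arrays, against 9.80, 9.77 and 9.76 in PA arrays. Prc1 was highest in NIR, by 0.15 over PA (limma adjusted p 0.422). The other Prc1 probe set, with a mean of 9.21, gave 0.036 in NIR minus PA, with NIR and PA arrays overlapping. Kif11, the motor that pushes spindle poles apart, had 8.23, 8.27 and 8.35 in IR arrays, with 8.02, 8.03 and 8.29 in NIR arrays, against 8.25, 8.22 and 7.97 in PA arrays, overlapping in all pairs. Its IR minus PA difference was 0.13 (limma adjusted p 0.799), and 0.045 without PA3. Its other probe sets, of about the same brightness (8.15 and 8.09), gave -0.14 and 0.040.

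Of the remaining motors and spindle genes, Kif2c, a microtubule depolymerase, averaged 8.67 in IR, 8.76 in NIR and 8.72 in PA arrays. Kif4, a chromosome-arm motor, averaged 7.49 in IR, 7.44 in NIR and 7.41 in PA arrays. Kif20a and Kif23, motors of cytokinesis, were within 0.089 in every comparison. The widest of these was Kif20a in IR minus NIR, at -0.089. Tpx2, which activates Aurora A on spindle microtubules, averaged 9.26 in IR, 9.36 in NIR and 9.36 in PA arrays.

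The passenger complex holds Aurora B at centromeres and then at the midzone. Cdca8 (Borealin) had 10.05, 10.03 and 9.99 in IR arrays, with 10.07, 10.01 and 10.09 in NIR arrays, against 10.13, 10.23 and 10.07 in PA arrays. IR arrays lay below PA arrays, with a difference of -0.12 (limma adjusted p 0.696), and -0.079 without PA2. The other Cdca8 probe sets, with means of 9.98 and 8.92, gave -0.0027 and -0.070 in IR minus PA. Birc5 (Survivin) averaged 11.31 in IR, 11.26 in NIR and 11.33 in PA arrays, and Incenp, the scaffold of the complex, averaged 9.84 in IR, 9.75 in NIR and 9.86 in PA arrays. For cytokinesis, Ect2, the RhoA activator, had 8.87, 8.87 and 8.96 in IR arrays, with 8.70, 8.48 and 8.87 in NIR arrays, against 8.99, 9.08 and 8.65 in PA arrays. The groups of Ect2 overlapped, and its NIR minus PA difference was -0.22 (limma adjusted p 0.503), with -0.12 without NIR2, -0.14 without PA2 and -0.35 without PA3. Anln, which scaffolds the contractile ring, averaged 10.21 in IR, 10.18 in NIR and 10.29 in PA arrays.

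Among chromosome proteins, Top2a, the topoisomerase that untangles sister DNA, averaged 11.42 ± 0.064 in IR, 11.42 ± 0.11 in NIR and 11.33 ± 0.046 in PA arrays (SD, n = 3 each). Mki67, the proliferation marker that coats mitotic chromosomes, averaged 10.15 ± 0.074 in IR, 10.10 ± 0.10 in NIR and 10.11 ± 0.049 in PA arrays (SD, n = 3 each). No call was made for either gene.

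**Figure D3:**
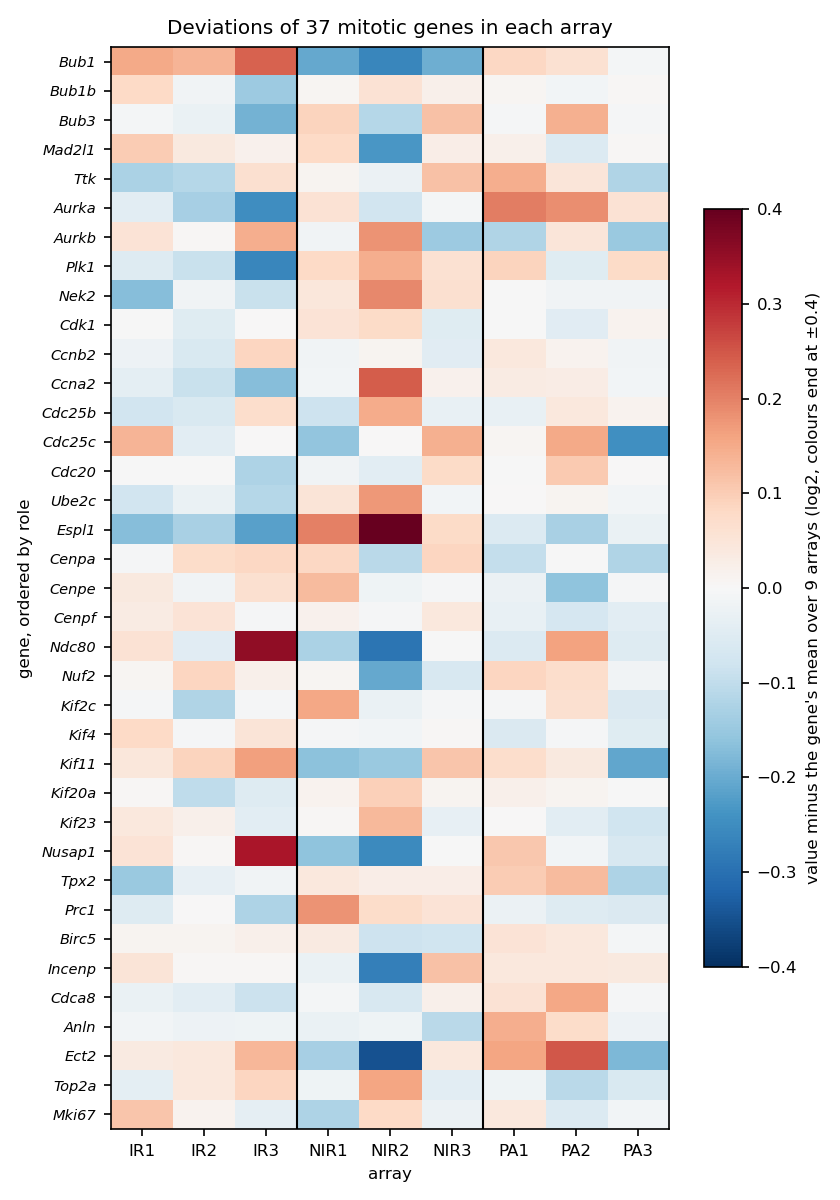
Heatmap of each gene's log2 deviation from its own mean over the 9 arrays, genes in rows by role and arrays in columns with IR, NIR and PA from left to right. The rows of Bub1, high in IR and low in NIR, and Espl1, high in NIR, stand out, and most other rows show no block of 3 arrays.

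The comparison of IR with the parental cells gave no call among the 37 genes in limma, where 1.06% of all genes passed, and 2 members had an unadjusted p under 0.05, Aurka and Plk1, both lower in IR, where 8.59% of all genes did and 4.29% were lower. The differences ran from -0.29 to 0.14 with a median of -0.014, against 0.0043 over all genes. Arrays were separated for 8 members, 2 above and 6 below, where 14.7% of all genes were, 7.26% above and 7.43% below. The 95% interval lay inside 0.5 on either side of 0, which is 1.41-fold, for all 37 members.

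NIR against the parental cells also gave no call in limma, where 1.3% of all genes passed, and 2 members had an unadjusted p under 0.05, Espl1 higher and Bub1 lower in NIR, where 12.1% of all genes did, 5.96% higher and 6.14% lower. The differences ran from -0.27 to 0.31 with a median of 0.010, against 0.0046 over all genes. Arrays were separated for 7 members, 5 above and 2 below, where 15.5% of all genes were, 7.82% above and 7.73% below. The interval lay inside 0.5 for 36 members, Espl1 being the exception. In IR minus NIR it lay inside for 34, all but Bub1, Espl1 and Ndc80. A limma F test over the 3 groups called 1 member, Bub1 (adjusted p 0.0195), where 2.34% of all genes were called. These comparisons share arrays, so their values are not independent of each other.

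**Figure D4:**
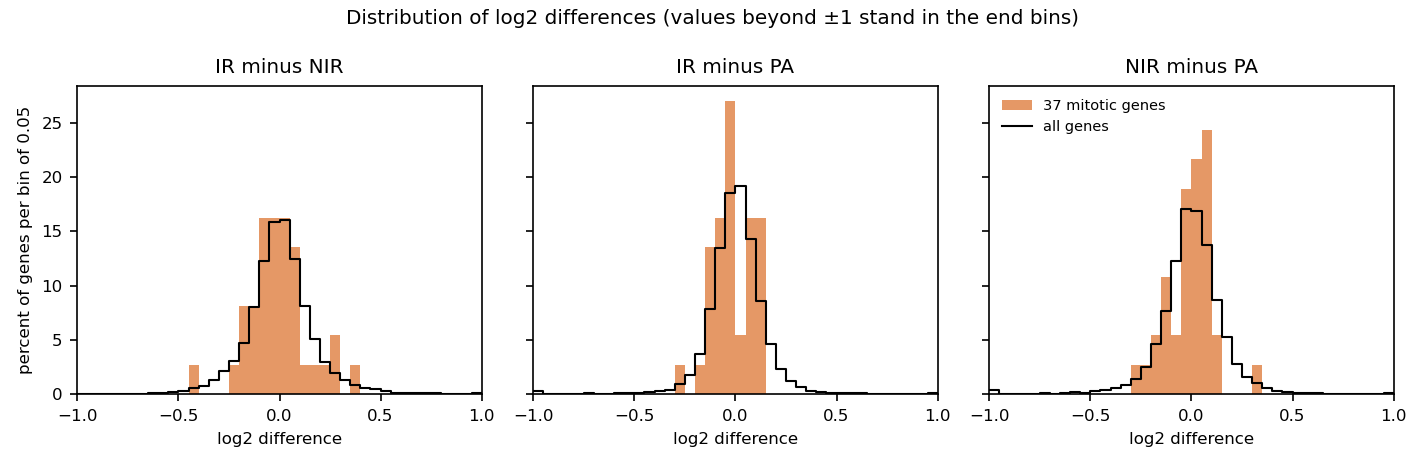
Distribution of log2 differences in IR minus NIR, IR minus PA and NIR minus PA, with the 37 genes and all 18194 genes as separate histograms in percent of genes, values beyond 1 being drawn in the end bins. The medians of the 37 genes are -0.0050, -0.014 and 0.010, beside 0.0014, 0.0043 and 0.0046 over all genes.

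The rest of the mitotic machinery was read from lists of related genes. None of 18 subunits and regulators of the anaphase-promoting complex, 24 cohesin and condensin genes, 33 other kinetochore and checkpoint genes, 14 cyclins and kinases of G1 and S phase and 42 DNA replication genes passed in limma in any comparison. Their numbers of members with an unadjusted p under 0.05 were, in that order, 3, 5, 10, 2 and 7 in IR minus NIR, 1, 2, 3, 2 and 2 in IR minus PA and 3, 4, 9, 2 and 4 in NIR minus PA. Of all genes 15.9%, 8.59% and 12.1% had such a p in these comparisons. Of 40 other motor, spindle and cytokinesis genes, 1 passed in IR minus NIR and in NIR minus PA, where 1.65% and 1.3% of all genes did. This was Rcc1, the chromatin-bound exchange factor of the Ran GTPase. Rcc1 had 8.49, 8.54 and 8.28 in IR arrays, against 9.00, 9.00 and 9.14 in NIR arrays, with 8.55, 8.57 and 8.31 in PA arrays. NIR arrays lay above all others, with differences of -0.61 in IR minus NIR (SE 0.095, limma adjusted p 0.0143) and 0.57 in NIR minus PA (limma adjusted p 0.0112). The first call held whichever array was left out but not with only IR and NIR arrays in the fit (limma adjusted p 0.0625), and the second was lost without PA3 (limma adjusted p 0.0577, difference 0.49).

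Regulators of the programme were listed as 23 DREAM, MYBL2-FOXM1 and E2F genes. Foxm1, the G2 and M transcription factor, had 8.48, 8.34 and 8.51 in IR arrays, against 8.67, 9.05 and 8.55 in NIR arrays, with 8.61, 8.55 and 8.55 in PA arrays, and its IR minus NIR difference was -0.31 (limma adjusted p 0.191). IR arrays of Foxm1 lay below NIR arrays. Mybl2, which acts before it, had 6.95, 6.84 and 6.68 in IR arrays, against 7.41, 7.32 and 7.15 in NIR arrays, with 6.93, 7.23 and 6.87 in PA arrays, a difference of -0.47 (limma adjusted p 0.06). Tfdp2, a partner of E2F proteins, had 6.19, 6.07 and 6.52 in IR arrays, against 6.72, 6.73 and 6.80 in NIR arrays, with 6.76, 6.71 and 6.68 in PA arrays. It was the 1 called gene of this list, where 1.65% of all genes were called, lower in IR than in NIR, with a difference of -0.49 (limma adjusted p 0.0391), and it passed in 1 of the 9 fits with an array left out, the one without IR3 (limma adjusted p 0.00768).

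Of 21 genes that brake CDK1 and the cell cycle, 1 was called in IR minus NIR, where 1.65% of all genes were. Ccng2, an atypical cyclin of cells leaving the cycle, had 7.34, 7.35 and 8.76 in IR arrays, against 6.43, 6.29 and 6.63 in NIR arrays, with 7.27, 7.28 and 7.67 in PA arrays. IR arrays lay above NIR arrays, with IR3 far above the other 2, and the difference was 1.37 (limma adjusted p 0.0477). Without IR3 it was 0.90 (limma adjusted p 0.0156), and it did not pass when any other array was left out. Cdkn1a, the p53-induced CDK inhibitor, had 9.41, 9.41 and 9.31 in IR arrays, with 9.39, 9.44 and 9.20 in NIR arrays, against 9.41, 9.52 and 9.58 in PA arrays. Its differences were 0.036 in IR minus NIR, -0.12 in IR minus PA and -0.16 in NIR minus PA, and none passed.

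Of the 43 probe sets of the members other than the brightest, 13 were as bright as the dimmest member. In these the differences ran from -0.14 to 0.19 in IR minus NIR, from -0.14 to 0.10 in IR minus PA and from -0.20 to 0.096 in NIR minus PA, and none was called in limma. The other 30 were dimmer. The chosen probe set can bind several transcripts for 16 of the 37 genes, by its identifier.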

How the data were processed

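Total RNA of 9 SCCVII samples (3 IR, 3 NIR, 3 PA) was extracted (Qiagen RNeasy Mini Kit), biotin-labelled and hybridized to Affymetrix mouse arrays, per the labels' protocols. The deposited values are log2 expression made by the authors with RMA, per the submitters' processing notes, and version and settings are not given in the sources used here. No further scaling was applied. Of 45100 probe sets 34944 had 1 gene, 932 several and 9160 none, and 64 were controls. Symbols came from the platform annotation, updated through Entrez identifiers against RefSeq (34740 matched, 204 not). Groups were compared in limma 3.58.1 in R 4.3.3 (lmFit, eBayes, a mean per group, all 9 arrays, no covariates, 2-sided), with Benjamini-Hochberg adjustment over 18194 genes, a threshold of 0.05, and 6 residual and 5.48 prior degrees of freedom. The procedure was also run on simulated data. The outcome of that run is not given here, and no result rests on it. The members and the other gene lists were chosen with earlier results of these data known. Values in every array are printed for members called in any comparison and for the 3 largest positive and 3 largest negative differences of each comparison; Ube2c, Ccna2 and a second Cenpa probe set were added after their values were seen. Of the other lists, up to 4 called genes per list and comparison, with Foxm1, Mybl2 and Cdkn1a, were named. The markers Krt5, Krt8, Krt14, Trp63, Cdh1 and Vim, none of them called, were also named, for their levels. Replicate numbers were not used as pairs in the reported fit. Correlations over genes of deviations from group means ran from -0.201 to 0.0974 for same-numbered arrays of different groups. For arrays with different numbers they ran from -0.123 to 0.251. These values cannot show whether the samples were paired. Alternatives were another filter, probe set rule, scaling, variance moderation, weights, samples in the fit, a replicate block and each array left out. The number of arrays limits the precision. Plots used Python 3.11.15 and matplotlib 3.10.9.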

Additional observations from a re-analysis of the deposited data

How the results depend on the processing

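The number of mitotic genes called in IR minus NIR, 2 in the reported fit, was 0 when only the IR and NIR arrays were fitted, where the count over all genes was 11 against 300. Without probe sets that can bind several transcripts it was 3 of 29 members (Bub1, Cenpa, Espl1), where 265 of all genes were called. Cenpa was then read from its dimmer probe set, with a mean of 5.31. The count was 1 with probe sets averaged per gene (Espl1), with the replicate block (Bub1) and with a second quantile normalization (Bub1). Of all genes 244, 230 and 357 were called in these settings, in that order. The member count ranged from 0 to 2 when an array was left out, with 0 without IR1, IR2 or IR3, where 77, 93 and 128 of all genes were called. In IR minus PA the count was 0 except with array weights, which gave 1 (Aurka, -0.28). With these weights 467 of all genes were called in that comparison, against 192 in the reported fit. In NIR minus PA the count was 1 with array weights (Bub1, -0.27), where 382 of all genes were called, against 236 in the reported fit. It was 1 with every probe set tested (Cenpa), where 292 of all probe sets were called. Without probe sets that can bind several transcripts it was 1 of 29 members (Cenpa), where 178 of all genes were called. In all other settings it was 0. The IR minus PA and NIR minus PA counts were both 0 whichever array was left out. The F test, which called 1 member and 426 of all genes, called 2 members with every probe set tested (534 of all probe sets). It called 2 of 29 members without probe sets that can bind several transcripts (330 of all genes). No member was called with the mean of probe sets (353 of all genes) or with the replicate block (330). With an array left out, 0 to 2 members were called. The F test alternatives were chosen after seeing the data. The median difference in IR minus NIR (-0.0050) was -0.043 with the mean of probe sets and -0.028 to -0.0050 with an array left out. Without probe sets that can bind several transcripts it was -0.055, over 29 members in place of 37. In IR minus PA (-0.014) the median was -0.047 over those 29 members and -0.029 to -0.0016 with an array left out. In NIR minus PA it was -0.016 to 0.030 with an array left out. Among named members the sign changed for Aurka on another probe set (0.061 in IR minus PA, 0.073 in NIR minus PA), for Bub1 in IR minus PA on its dim probe set (-0.031), for Kif11 in IR minus PA on another probe set (-0.14) and without probe sets that can bind several transcripts (-0.14), and for Nek2 in IR minus NIR on 2 other probe sets (0.053 and 0.025). The cause was not tested. For the other lists, markers included, the number called was 0 to 8 over all alternatives in IR minus NIR (4 in the reported fit, and 0, Rcc1 included, with only IR and NIR arrays), 1 to 7 in IR minus PA (2) and 0 to 11 in NIR minus PA (4, and 0 without PA3). Espl1 lost its call with only the compared groups, with every probe set tested, with the replicate block and with a second quantile normalization. Of the alternatives for named members, 349 kept direction and side of the threshold, 18 lost the call, 2 gained one and 7 changed sign. Several settings, such as leaving out an array of the group not compared, cannot change the difference or its sign, only its p-value. All losses fell on the 2 called differences, Bub1 (6 lost, 14 kept) and Espl1 (12 lost, 7 kept) in IR minus NIR. The other named differences were not called in the reported fit. With 3 arrays a group, the 95% interval of a member reached a median of 0.17 to either side of its difference.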
